A study of Rattus norvegicus with 24 samples.

Results

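Axons find their targets by reading ligands in their surroundings through receptors on the growth cone, and the genes of these ligands and receptors stay active in the adult brain. The set described here holds 57 genes: 17 semaphorins with their 8 plexin and 2 neuropilin receptors, 5 ephrins with their 12 Eph receptors, 3 Slits with their 3 Robo receptors, and 2 netrins with 4 netrin receptors and 1 netrin-G. They were chosen by their gene symbol in the annotation of the array, out of 14217 genes with a single symbol, and they cover 96 of 31042 probe sets. Where several probe sets carried a symbol, the one brightest on average over the 24 arrays (mean log2 intensity) stood for the gene.

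Class 3 semaphorins are secreted and act through neuropilins and plexins, whereas semaphorins of classes 4 to 6 span the membrane and bind plexins directly. Ephrins and Eph receptors both sit in membranes, so that neighbouring cells signal through them on contact. Slits repel axons through Robo receptors. Netrin-1 attracts axons through Dcc and repels them through Unc5 receptors, while netrin-G1 is anchored in the axon membrane and binds the synaptic adhesion molecule encoded by Lrrc4c. In adult nervous tissue these families are known for roles in synapse formation, glial interactions and vessels.

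RNA was measured on Affymetrix rat arrays, each hybridised with RNA pooled from 5 male rats aged 10 to 13 weeks (10 to 12 weeks for 1 array of the neurointermediate lobe). The spontaneously hypertensive rat (SHR) gave 5 arrays of the pituitary's neurointermediate lobe (NIL), 5 of the rostral ventrolateral medulla (RVLM), 5 of the paraventricular nucleus (PVN) and 4 of the supraoptic nucleus (SON), and the normotensive Wistar-Kyoto rat (WKY) gave 5 of the RVLM. The labels name no transgene and no treatment, and no WKY array of NIL, PVN or SON is analysed here. Each array was treated as its own pool, and whether pools of different structures shared rats was not known here. The design asked how hypertensive and normotensive rats differ in structures that control blood pressure and body fluid, and the labels allow that comparison in the RVLM and a comparison of the 4 structures within SHR.

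Pnmt and Dbh were highest in the RVLM arrays and Pomc and Pcsk2 in the NIL arrays. Th, also taken to mark the RVLM, was 109 to 140 in SHR RVLM but 149 to 391 in PVN and 425 to 524 in SON. The genes that tell PVN and SON apart matched the label on 4 of the 5 PVN arrays. Pnmt, the adrenaline-making enzyme, lay between 113 and 251 in SHR RVLM and between 124 and 212 in WKY RVLM, and at 0.992 to 5.81 in NIL, 1.92 to 8.36 in PVN and 1.72 to 16.5 in SON. Pomc of the pituitary melanotrophs was 611 to 1243 in NIL and at most 16.2 in the other SHR structures, and Avp, which both nuclei make, was 3893 to 5284 in PVN and 4592 to 5609.9 in SON. The array labelled PVN replicate 3 (PVN array 3) did not match its label by these genes. Its 5 parvocellular genes summed to 835, against 4735 to 5559.9 on the other PVN arrays and 455 to 649 on the SON arrays. Its 4 lateral hypothalamic genes summed to 669.8, against 2937 to 4980.4 on the other PVN arrays. Over probe sets, its mean Spearman correlation was 0.912 with the other PVN arrays and 0.936 with the SON arrays, and it was the 1 PVN array closer to the SON. Whether it differs by dissection or by an exchanged label cannot be told apart here, so each PVN mean and each difference that uses the PVN carries this doubt. The 11 marker genes of choroid plexus and meninges summed to 11522 on it, 980 to 1210 on the other PVN arrays and 7987 to 12843 on the SON arrays, and Crh, which reached 514 on another PVN array, was 38.1 on it. Calls that change without it are given beside each family. The NIL arrays differed among themselves in 7 hormone genes of the anterior pituitary, which summed to 2947 to 16733 on them and to at most 238 on the other SHR arrays.

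**Figure D1:**
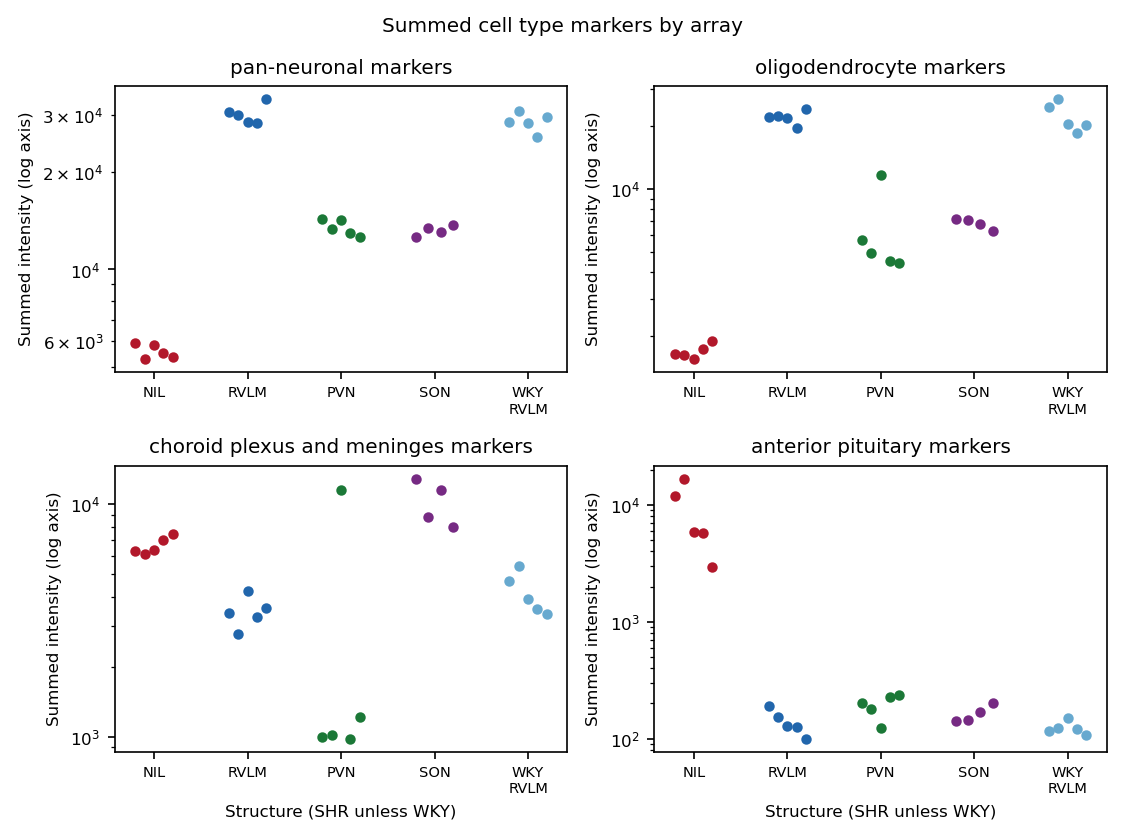
Summed intensity (log axis) of the marker genes of 4 cell types on each array, 1 point per array, by structure. PVN array 3 lies with the SON arrays in choroid plexus and meningeal markers, the RVLM arrays are highest in oligodendrocyte and pan-neuronal markers, and the NIL arrays spread widely in anterior pituitary markers.

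The axon guidance genes differed between the structures of the SHR and were not called between the strains. Of 57 genes, 41 passed the filter on dim probe sets in the fit of the 19 SHR arrays and 39 in the fit of the 10 RVLM arrays. A gene was called when its Benjamini-Hochberg adjusted p, from limma over all 18625 probe sets kept, lay under 0.05. Between NIL and the mean of PVN and SON 30 of 41 were called, 13 higher and 17 lower in NIL (73.2%, against 58.9% of all genes tested). Between RVLM and the mean of PVN and SON 25 were called, 10 higher and 15 lower in RVLM (61%, against 50.6%). Between PVN and SON 12 were called, 11 higher and 1 lower in PVN (29.3%, against 16.1%), and between SHR and WKY RVLM 0 of 39, against 1.41%. By direction, 30.8% of all genes tested were higher and 28.1% lower in NIL, 21.4% higher and 29.2% lower in RVLM, and 9.02% higher and 7.12% lower in PVN than in SON. The median log2 difference of the members tested was −0.26 in NIL, −0.02 in RVLM and 0.14 in PVN against SON, beside 0.03, −0.08 and 0.01 over all genes tested. Since a gene can pass the filter through the one structure where it is bright, these shares describe the genes tested and not the whole set. The comparisons of NIL and of RVLM share their PVN and SON arrays, so their values are given side by side only.

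**Figure D2:**
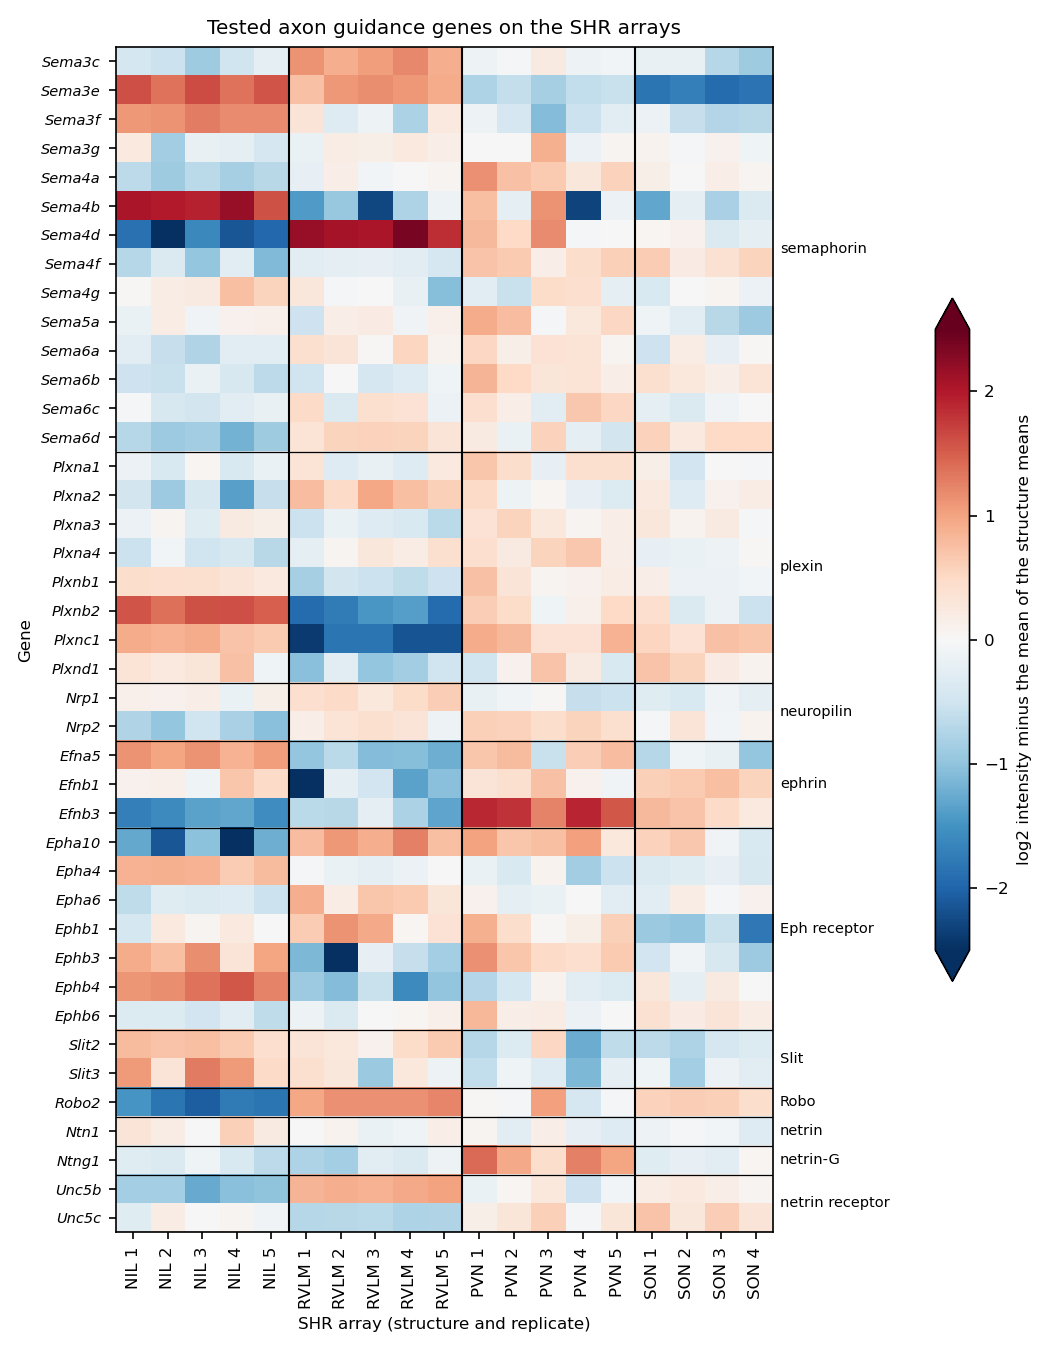
The 41 tested genes (rows, by family) on the 19 SHR arrays (columns). Colour gives log2 intensity, after subtracting the array's median, minus the gene's mean over the 4 structures. Sema3e, Plxnb2 and Sema4b are highest in NIL, Sema4d, Sema3c and Robo2 in RVLM, and Efnb3 and Ntng1 in PVN.

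The sequence before the start of 3 members is shown, each of them at the head of a comparison. Among the members that passed the filter, Sema3e had the largest rise in both NIL and RVLM, Plxnc1 the largest fall in RVLM, and Ephb1 the largest rise in PVN over SON. Each is a window of 300 bases, most of it before the gene's start, on the minus strand of the rat genome GRCr8 as given by RefSeq, with the GC box GGGCGG or its reverse complement CCGCCC in capitals.
Sema3e (chr4:21510325-21510624): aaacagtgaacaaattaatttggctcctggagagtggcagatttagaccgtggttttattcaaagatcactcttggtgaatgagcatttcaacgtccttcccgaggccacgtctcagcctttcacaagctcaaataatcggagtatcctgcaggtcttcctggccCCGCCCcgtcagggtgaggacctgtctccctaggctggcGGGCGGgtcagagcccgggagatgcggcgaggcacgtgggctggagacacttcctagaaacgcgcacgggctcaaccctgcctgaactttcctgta
Plxnc1 (chr7:31430556-31430855): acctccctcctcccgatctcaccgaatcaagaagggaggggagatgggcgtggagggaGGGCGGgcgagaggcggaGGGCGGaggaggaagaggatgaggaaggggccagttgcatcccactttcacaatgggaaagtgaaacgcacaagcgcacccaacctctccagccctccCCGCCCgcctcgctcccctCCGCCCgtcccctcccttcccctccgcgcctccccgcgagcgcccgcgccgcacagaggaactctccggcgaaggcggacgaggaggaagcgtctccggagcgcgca
Ephb1 (chr8:111823710-111824009): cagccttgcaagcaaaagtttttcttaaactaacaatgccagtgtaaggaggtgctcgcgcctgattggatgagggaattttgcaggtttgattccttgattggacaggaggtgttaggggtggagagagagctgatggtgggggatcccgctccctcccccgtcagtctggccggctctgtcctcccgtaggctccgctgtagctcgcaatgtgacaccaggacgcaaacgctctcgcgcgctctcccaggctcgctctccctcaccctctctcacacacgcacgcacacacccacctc
The GC box, counted on both strands and with overlaps, occurred 2 times before Sema3e, 4 times before Plxnc1 and 0 times before Ephb1. Of 43 members with a promoter in the RefSeq table, 24 held it (55.8%), beside 34.9% of 27457 promoters of that length, 1 per gene. The letters TATAAA or TTTATA were found in 0 of the 43, beside 14.3% of all promoters, and CCAAT or ATTGG in 16, beside 37.7%. The median number of CG dinucleotides was 18.0 in the members and 7.0 in all promoters, and the median share of G and C was 61.0% and 52.33%. All promoters were taken without regard to gene type or base content, so they are not a matched background for these shares. Efnb3, Epha4, Ntn1, Plxna1, Plxna4, Sema3a, Sema3b, Sema3f, Sema4d, Sema4g, Sema5a, Slit1, Slit2 and Unc5c had no entry there. A match describes the letters of this window and names no bound factor. All 57 members were found in the RefSeq gene table, on 19 chromosomes, and Sema3a and Sema3d were direct neighbours while Robo1 and Robo2, and Efna1 and Efna4, had 1 other protein-coding gene between them.

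Among the secreted semaphorins, Sema3e, whose product binds plexin D1, separated all 4 structures. Its intensity was 841, 724, 862, 776 and 865 on the NIL arrays, 459, 611, 588, 552 and 481 on the RVLM arrays, 142, 183, 151, 206 and 204 on the PVN arrays and 78.6, 86.7, 75.3 and 80.0 on the SON arrays. No 2 structures overlapped, and the order was NIL, RVLM, PVN, SON. The log2 difference from the mean of PVN and SON was 2.75 (SE 0.0870, adjusted p = 4.97e-17) in NIL and 2.24 (SE 0.0870, adjusted p = 1.51e-14) in RVLM. Between PVN and SON it was 1.16 (SE 0.104, adjusted p = 1.88e-06). Its plexin, Plxnd1, was dim, with 43.2 ± 10.5 in NIL, 19.9 ± 5.35 in RVLM, 35.9 ± 12.7 in PVN and 45.1 ± 8.60 in SON (mean ± SD, n = 5, 5, 5 and 4), and was lower in RVLM (−0.94).

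Sema3f, a ligand of neuropilin-2, rose in NIL. It had 101, 105, 116, 118 and 112 in NIL and 25.9 to 59.4 in RVLM, against 37.9, 35.4, 21.5, 36.9 and 42.7 in PVN and 43.0, 32.9, 29.2 and 30.7 in SON. All NIL arrays lay above all others, and the difference was 1.68 (SE 0.178, adjusted p = 4.25e-08). Sema3c, which attracts as well as repels axons, rose in RVLM. It had 215, 192, 192, 214 and 171 there, against 78.8, 96.8, 112, 102 and 103 in PVN and 87.2, 89.4, 61.6 and 55.7 in SON, with no overlap. The difference was 1.29 (SE 0.128, adjusted p = 3.43e-08). Its rise in PVN over SON (0.47, SE 0.154, adjusted p = 0.0426) had overlapping arrays, and leaving out PVN array 1, 2, 3 or 5, or SON array 3 or 4, took its adjusted p to 0.0512 to 0.177. Sema3g did not pass in the 4 comparisons.

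Of the membrane-bound semaphorins, Sema4d differed most between NIL and RVLM. It is known from oligodendrocytes and acts on plexin B1. Its intensity was 14.3, 1.91, 17.3, 13.0 and 14.0 in NIL and 237, 232, 203, 257 and 174 in RVLM, against 80.6, 73.3, 115, 58.3 and 56.2 in PVN and 54.5, 57.8, 42.1 and 46.3 in SON. The RVLM arrays were the highest and the NIL arrays the lowest, without overlap. The difference was 1.91 (SE 0.357, adjusted p = 0.000134) in RVLM and −2.67 (SE 0.357, adjusted p = 1.33e-06) in NIL. Every NIL value was below the lowest array median (35.9, the highest being 46.5), so the size of that fall is loosely determined. On PVN array 3 it was 115, the highest PVN value. Oligodendrocyte markers were likewise highest in RVLM and lowest in NIL. The 13 on the array summed to 19443 to 23914 in RVLM, 1549 to 1886 in NIL, 4459 to 5713 in PVN without array 3, 11694 on PVN array 3 and 6319 to 7206 in SON. Without PVN array 3 these sums were lower in PVN than in SON, whereas Sema4d leaned higher in PVN without being called (0.43, adjusted p = 0.525). The part of these markers in the result was not tested. In tissue arrays, fewer cells of a type and less RNA per cell cannot be told apart.

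Sema4b rose in NIL, with 147, 144, 136, 176 and 112 there, against 52.1, 30.4, 74.5, 8.03 and 34.7 in PVN and 14.4, 31.1, 20.7 and 28.7 in SON. The NIL arrays lay above all others (2.37, SE 0.405, adjusted p = 3.36e-05), and 7 of its 9 PVN and SON values were below the lowest array median. Sema4d, Sema4f, Sema6d, Sema4a, Sema6b and Sema6a were lower in NIL. Sema4f had 87.0, 114, 72.9, 130.3 and 69.1 in NIL, against 205, 223, 154, 218 and 233 in PVN and 223, 168, 189 and 219 in SON (−1.16, SE 0.131, adjusted p = 1.07e-07), and it also fell in RVLM (−0.77; 98.0 to 125). Sema6d, a ligand of plexin A1, had 293, 264, 264, 233 and 270.5 in NIL, 493, 429, 689, 469 and 379 in PVN and 720.0, 589, 694 and 712 in SON. It fell in NIL (−1.14) and was the 1 called member lower in PVN than in SON (−0.46, SE 0.153, adjusted p = 0.0450), where PVN array 3, at 689, overlapped the SON arrays. Leaving out PVN array 2, 4 or 5, or SON array 1, 3 or 4, took its adjusted p to 0.0922 to 0.119, and without PVN array 3 the difference was −0.61, adjusted p = 0.00141.

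Sema4a (−1.14 in NIL and −0.39 in RVLM) and Sema6b (−0.82 and −0.63) were lower in both, and Sema6a was lower in NIL (−0.51). A second probe set of Sema6a was higher in RVLM (0.91, adjusted p = 0.00497), where the first was not called. Sema4a and Sema5a rose in PVN over SON. Sema4a had 331 ± 41.6 in PVN and 224 ± 10.2 in SON (0.58, SE 0.128, adjusted p = 0.00423, no overlap), and Sema5a, which carries thrombospondin repeats, had 121 ± 26.4 in PVN and 62.2 ± 15.0 in SON (0.99, SE 0.197, adjusted p = 0.00212, arrays overlapping). In all, 3 of 14 tested semaphorins rose and 6 fell in NIL, 3 rose and 3 fell in RVLM, and 4 rose and 1 fell in PVN against SON. The shares called were 64.3%, 42.9% and 35.7%, beside 58.9%, 50.6% and 16.1% of all genes tested. Sema3g, Sema4g and Sema6c were called in 0 of the 3 structure comparisons. Without PVN array 3, Sema6c passed in PVN against SON (0.62, adjusted p = 0.0103) and in NIL (−0.41, adjusted p = 0.0116), Sema4g in NIL (0.49, adjusted p = 0.0362) and Sema6d in RVLM (0.32, adjusted p = 0.0124).

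**Figure D3:**
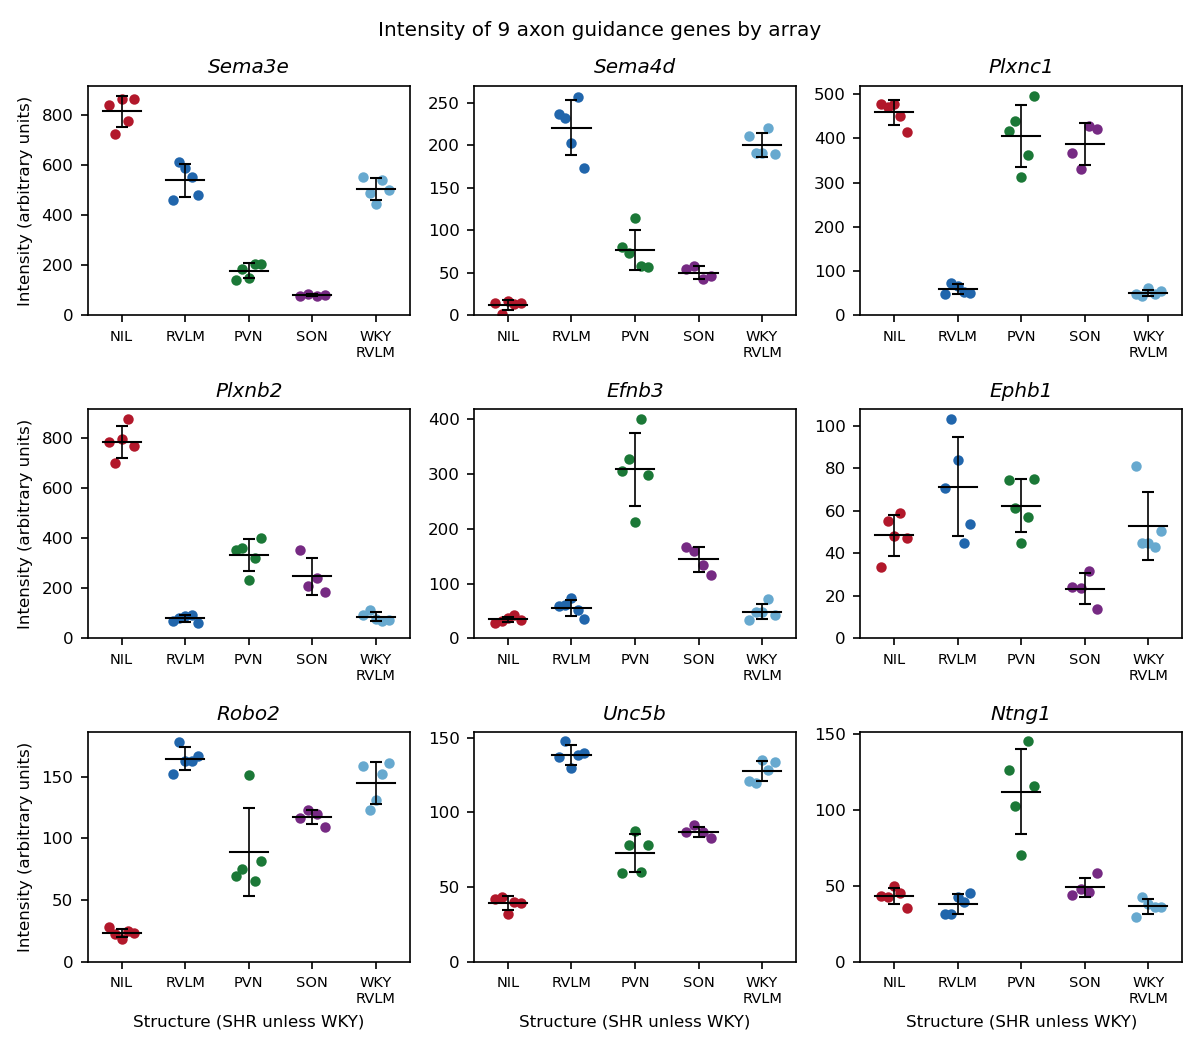
Intensity of 9 members on each array (points), with the mean and SD of each group (line and bar), in the 4 SHR structures and in WKY RVLM. Sema3e takes a different level in each SHR structure, Plxnc1 and Plxnb2 are lowest in the RVLM of both strains, Efnb3 and Ntng1 are highest in PVN, and the 2 RVLM groups overlap for every gene shown.

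Plexins, the receptors of semaphorins, held the member with the largest fall in RVLM. Plxnc1, the receptor of semaphorin 7A, had 479, 472, 479, 450.2 and 414 in NIL and 48.2, 74.0, 66.7, 53.2 and 51.4 in RVLM, against 417, 440.1, 312, 363 and 496 in PVN and 366, 332, 429 and 422 in SON. The RVLM arrays lay under all arrays of the other structures (−2.70, SE 0.117, adjusted p = 1.14e-13), and its second probe set also fell there (−2.18). NIL was not called against PVN and SON (0.20, adjusted p = 0.162), although the second probe set was higher there (0.70). Plxnb2, a receptor of class 4 semaphorins, rose in NIL and fell in RVLM. It had 783, 701, 795, 875 and 767 in NIL and 69.6, 80.7, 90.2, 95.3 and 63.3 in RVLM, against 352, 361, 233, 322 and 399 in PVN and 353, 211, 242 and 188 in SON. NIL was above and RVLM below all PVN and SON arrays, with differences of 1.45 (SE 0.144, adjusted p = 1.56e-08) in NIL and −1.77 (SE 0.144, adjusted p = 1.86e-09) in RVLM.

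The receptor of Sema4d, Plxnb1, fell in RVLM, with 190.4 ± 21.3 there, against 364 ± 46.3 in PVN and 293 ± 26.5 in SON (−0.71, SE 0.101, adjusted p = 5.08e-06), while its 2 other probe sets, at −0.10 and −0.07, were not called. Its rise in NIL (0.25, adjusted p = 0.0382) ended in 9 of 14 fits with 1 array left out, those without NIL array 1, 2 or 3, PVN array 3, 4 or 5, and SON array 2, 3 or 4 (adjusted p of 0.0539 to 0.0873), although both other probe sets were called higher in NIL (0.88 and 0.75). Among the plexins A, which pair with neuropilins, Plxna2 fell in NIL (−0.75) and rose in RVLM (0.70), and its second probe set did the same (−0.90 and 0.80). Plxna3 fell in RVLM (−0.63), where its second probe set was not called (−0.38, adjusted p = 0.111). Plxna4 fell in NIL (−0.59) and rose in PVN over SON (0.53, SE 0.151, adjusted p = 0.0229). Its second probe set was not called in NIL (−0.27, adjusted p = 0.276), was higher in PVN than in SON (0.74), and was higher in RVLM (0.71), where the first was not called (−0.01). Against SON the first probe set's adjusted p was 0.0536 to 0.0635 when PVN array 4, or SON array 1, 2 or 3, was left out. Without PVN array 3, Plxna1 (0.58, adjusted p = 0.0157), Plxnb1 (0.39, adjusted p = 0.0267) and Plxnb2 (0.58, adjusted p = 0.0141) were called higher in PVN than in SON, and Plxna1 was lower in NIL (−0.40, adjusted p = 0.0137).

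Of the neuropilins, Nrp2 fell in NIL (−1.10, SE 0.108, adjusted p = 1.27e-08), with 73.7 ± 10.3 there, against 179 ± 17.6 in PVN and 135 ± 18.2 in SON, and did not pass in RVLM. Its rise in PVN over SON (0.44, SE 0.130, adjusted p = 0.0261) was lost when PVN array 1 or 2, or SON array 1, 3 or 4, was left out, with an adjusted p of 0.0502 to 0.0885. Nrp1, which is also a co-receptor of vascular endothelial growth factor, was higher in NIL (0.33) and in RVLM (0.71) by its brighter probe set. Its second probe set rose in NIL (0.61) and fell in RVLM (−0.58), so the direction of Nrp1 in RVLM depends on the probe set.

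Among the ephrins, the ligands of Eph receptors, Efnb3 was highest in PVN. It is a membrane-spanning ephrin known from the midline of the spinal cord. It had 28.6, 31.8, 37.3, 41.9 and 33.6 in NIL and 58.8, 60.4, 74.6, 51.5 and 34.8 in RVLM, against 305, 326, 213, 399 and 297 in PVN and 166, 159, 135 and 116 in SON. Every PVN array, the lowest being PVN array 3 at 213, lay above every SON array, and all of these lay above NIL and RVLM. The differences were −2.62 (SE 0.151, adjusted p = 1.54e-12) in NIL, −1.87 (SE 0.151, adjusted p = 1.66e-09) in RVLM and 1.11 (SE 0.181, adjusted p = 0.000410) in PVN against SON. The NIL mean of Efnb3, 34.7, was below the lowest array median, so the size of the fall in NIL is loosely determined. Efnb1 was dim, with 4.22, 26.9, 20.8, 11.3 and 13.5 in RVLM, against 33.2, 40.1, 49.0, 36.9 and 31.2 in PVN and 46.0, 49.4, 52.4 and 46.9 in SON, and fell in RVLM (−1.66, SE 0.296, adjusted p = 8.13e-05) without overlap. Efna5, a lipid-anchored ephrin, had 217 ± 9.11 in NIL, 50.7 ± 10.3 in RVLM, 152 ± 50 in PVN and 77.1 ± 21.4 in SON. It rose in NIL (1.04), fell in RVLM (−0.98) and rose in PVN over SON (0.96, SE 0.223, adjusted p = 0.00637), the last with overlapping arrays.

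Of 7 tested Eph receptors, 3 rose and 3 fell in NIL, 2 rose and 2 fell in RVLM, and 2 rose in PVN over SON. The shares called were 85.7%, 57.1% and 28.6%, beside 58.9%, 50.6% and 16.1% of all genes tested, and 7 genes are few for such shares. Ephb1, a receptor of ephrins B, had 33.8 to 59.0 in NIL, 70.8, 103, 83.7, 44.9 and 53.9 in RVLM, 74.4, 61.3, 45.0, 57.1 and 74.8 in PVN and 24.2, 23.7, 31.8 and 13.8 in SON. The SON was lowest, with no overlap with PVN (1.48, SE 0.247, adjusted p = 0.000510), and RVLM was higher than PVN and SON together (0.94, SE 0.206, adjusted p = 0.000647) with arrays that overlapped those of the PVN. Ephb3 had 80.0, 66.9, 55.6, 63.0 and 70.6 in PVN and 29.8, 40.1, 31.9 and 23.0 in SON (1.15, SE 0.318, adjusted p = 0.0182), a call that ended without PVN array 1 or SON array 4 (adjusted p 0.0503 to 0.0669). In RVLM, where it had 19.1, 7.65, 34.1, 26.2 and 21.2, Ephb3 fell against PVN and SON (−1.15, SE 0.265, adjusted p = 0.00101), with values that overlapped those of the SON. In NIL, Ephb3 had 56.6 to 93.8, above every SON array but overlapping the PVN arrays. Its rise there over the mean of PVN and SON (0.72, adjusted p = 0.0236) ended without NIL array 1, 3 or 5 (adjusted p 0.0504 to 0.0688).

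Ephb4, which marks veins in development, rose in NIL with 76.8, 81.8, 92.9, 115 and 88.5, against 18.9, 26.4, 36.5, 33.9 and 30.7 in PVN and 43.8, 31.2, 42.9 and 37.6 in SON (1.41, SE 0.172, adjusted p = 3.41e-07), and fell in RVLM (−0.89). The 14 endothelial markers on the array summed to 1745 to 2079.8 in NIL, 2048 to 2216 in RVLM, 1994 to 2805 in PVN and 2194 to 2959.6 in SON. Of 14 tested, 5 were higher in NIL and 4 lower, and their part in the Ephb4 result was not tested. Epha4, which binds ephrins of both classes, rose in NIL with all 3 tested probe sets (1.16, 1.30 and 1.31), with 455 ± 16.2 in NIL, against 198 ± 37.0 in PVN and 207 ± 13.1 in SON. In RVLM 1 of the other probe sets was called higher (0.82, adjusted p = 0.0249), and without PVN array 3 the brightest was too (0.29, adjusted p = 0.0147). Epha10, which lacks kinase activity, fell in NIL with 15.1, 8.50, 18.2, 2.94 and 16.4, against 64, 58.6, 59.5, 84.7 and 47.4 in PVN and 55.0, 59.9, 35.4 and 29.2 in SON (−2.36, SE 0.326, adjusted p = 2.09e-06). Every NIL value of Epha10 was below the lowest array median, so the size of its fall is loosely determined. Ephb6, another Eph protein without kinase activity, fell in NIL (−0.65). Epha6 rose in RVLM (0.60), and its fall in NIL (−0.38, adjusted p = 0.0283) ended without NIL array 1 or 5 or SON array 2 (adjusted p 0.0551 to 0.0802).

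Slit2 and Slit3 rose in NIL and the receptor gene Robo2 fell there, while Slit1, Robo1 and Robo3 were under the filter. Slit2 had 179, 174, 176, 182 and 147 in NIL and 131, 131, 107, 136 and 151 in RVLM, against 55.9, 82.0, 145, 49.7 and 72.5 in PVN and 66.4, 63.2, 79.6 and 85.6 in SON. It rose in NIL (1.18, SE 0.186, adjusted p = 1.20e-05), where its second tested probe set rose too (0.99), and in RVLM (0.88, SE 0.186, adjusted p = 0.000459), where the second probe set did not (−0.31, adjusted p = 0.073). PVN array 3, at 145, lay with the RVLM arrays. Slit3 rose in NIL (1.25, SE 0.232, adjusted p = 8.35e-05), with 66.7 ± 18.2 there, against 25.8 ± 6.60 in PVN and 28.7 ± 5.98 in SON. Robo2, a receptor of both, had 28.0, 22.5, 18.8, 24.9 and 23.0 in NIL and 152, 178, 163, 163 and 167 in RVLM, against 69.4, 75.4, 152, 65.6 and 81.5 in PVN and 117, 123, 120.0 and 109 in SON. It was lowest in NIL (−2.12, SE 0.162, adjusted p = 1.92e-10) and highest in RVLM (0.79, SE 0.162, adjusted p = 0.000348), though PVN array 3, at 151.5, lay just under the lowest RVLM array. Every NIL value of Robo2 was below the lowest array median, so the size of its fall there is loosely determined. Its second probe set was called neither in NIL (−0.46, adjusted p = 0.0856) nor in RVLM (0.41, adjusted p = 0.130). Without PVN array 3 Robo2 was lower in PVN than in SON (−0.67, adjusted p = 0.000918), against −0.45 with it (adjusted p = 0.129), and the second probe set was lower in PVN with all arrays (−0.90, adjusted p = 0.027).

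In the netrin system the receptors Unc5b and Unc5c went opposite ways in RVLM against the hypothalamic nuclei. Unc5b had 41.8, 43.2, 31.9, 40.3 and 39.1 in NIL and 137, 148, 129.9, 138 and 139.8 in RVLM, against 59.2, 78.3, 87.8, 60 and 78.2 in PVN and 86.9, 91.4, 86.7 and 82.9 in SON. Unc5c had 99.9, 144, 123, 142 and 122 in NIL and 76.1, 79.5, 73.3, 68.1 and 67.7 in RVLM, against 119.8, 152, 179.6, 137 and 165 in PVN and 203, 155, 195 and 160.0 in SON. In neither gene did the RVLM arrays overlap those of PVN and SON: Unc5b rose (0.87, SE 0.114, adjusted p = 1.78e-06) and Unc5c fell (−1.09, SE 0.109, adjusted p = 3.39e-08). Unc5b fell by 1.04 in NIL and Unc5c by 0.40. Ntn1, the netrin that both bind, rose in NIL (0.39, SE 0.128, adjusted p = 0.0117), with 60.7 ± 11.5 there, against 44.9 ± 5.04 in PVN and 44.9 ± 3.40 in SON. Its NIL arrays, at 48.5 to 79.8, overlapped those of the PVN, and with 1 array left out its adjusted p rose to as much as 0.04996. The attractive receptor gene Dcc was under the filter, at 5.65 ± 6.61 in NIL, 2.44 ± 3.86 in RVLM, 3.42 ± 2.99 in PVN and 2.75 ± 2.41 in SON.

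Ntng1, the netrin-G of some excitatory axons, was highest in PVN. It had 43.4, 42.6, 49.9, 45.3 and 35.5 in NIL, 31.6, 31.1, 42.4, 39.4 and 45.4 in RVLM, 126, 103, 70.3, 145 and 115 in PVN and 43.8, 47.9, 46.0 and 58.1 in SON. The lowest PVN value, 70.3 on PVN array 3, was above every NIL, RVLM and SON value. The difference was 1.19 (SE 0.190, adjusted p = 0.000350) in PVN against SON, and against the mean of PVN and SON it was −0.78 in NIL and −0.89 in RVLM. Lrrc4c, the gene of its binding partner, was higher in PVN than in SON too (0.61, adjusted p = 0.00701, named after its value was seen). In RVLM, where Ntng1 was lower, Lrrc4c was higher than in the mean of PVN and SON (0.79, adjusted p = 1.43e-05), with overlapping arrays.

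**Figure D4:**
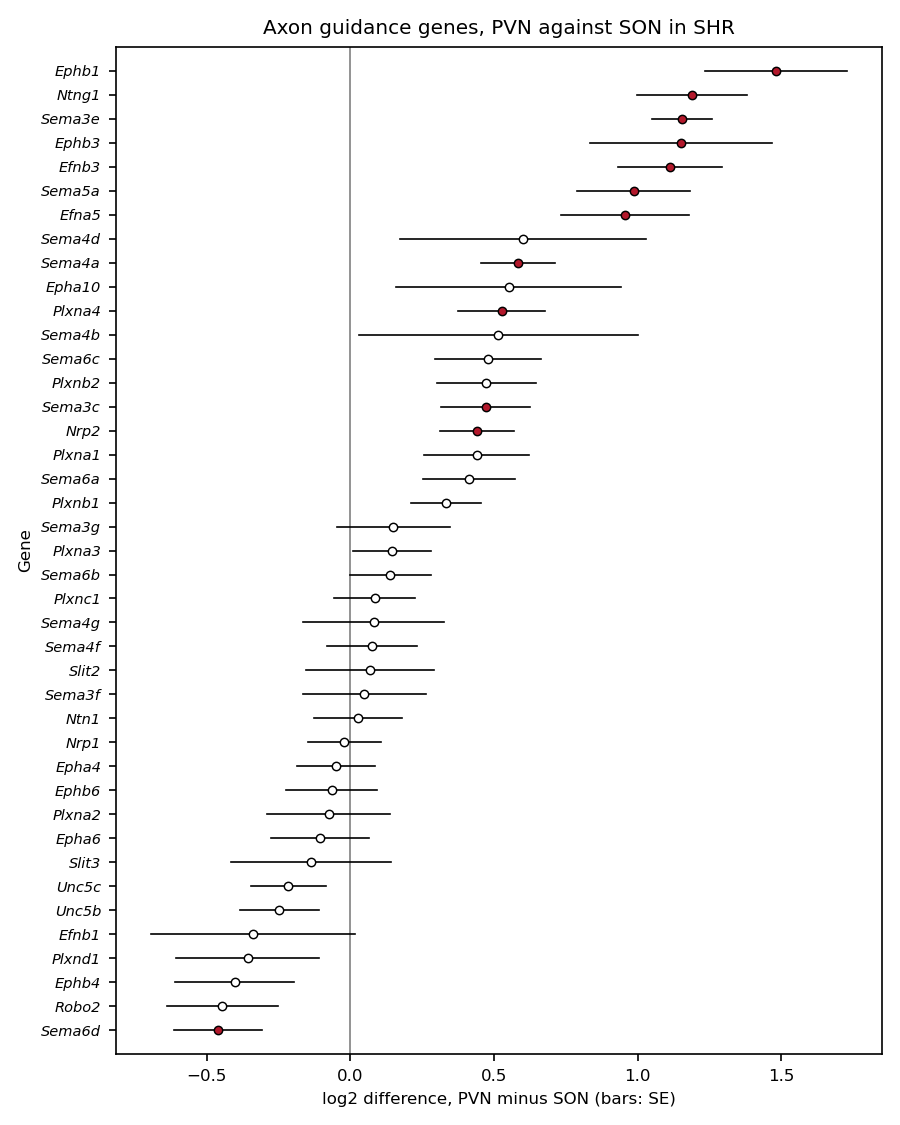
Log2 difference between PVN and SON in SHR for the 41 tested members, with the SE; filled points were called. Of the 12 called members, Ephb1 (1.48) is at the top and Sema6d (−0.46) is the one below 0.

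Of the 12 calls between PVN and SON, Ephb1, Ntng1, Sema3e, Efnb3, Sema5a, Efna5 and Sema4a held in each of the 9 fits with 1 array left out. Without PVN array 3 the count was 16, 14 higher and 2 lower, with 11 called in both fits, Plxna1, Plxnb1, Plxnb2, Sema6c and Robo2 added and Sema3c lost. In NIL the count without it was 32, with Plxna1, Sema4g and Sema6c added and Plxnb1 lost, and in RVLM it was 27, with Epha4 and Sema6d added. The pan-neuronal markers summed to 12637 to 14354 in PVN and 12559.5 to 13750.1 in SON, while those of choroid plexus and meninges differed as given above. Parvocellular markers were higher in PVN in 4 of 4 tested (median log2 difference 3.57), lateral hypothalamic markers in 4 of 4 (2.72), and magnocellular markers were lower in 4 of 8. The part of these markers in the PVN and SON differences was not tested. In NIL, 15 of 16 pan-neuronal and 10 of 10 astrocyte markers tested were lower than in PVN and SON and the 5 tested anterior pituitary genes were higher, and their part in the NIL results was not tested either. In RVLM 11 of 12 oligodendrocyte markers tested were higher. Pan-neuronal markers summed to 28252 to 33616 there, but of 16 tested only 9 were called higher and 2 were lower (median log2 difference 0.46). The part of these markers in the RVLM results was likewise not tested. Leaving out NIL array 2, which was highest in anterior pituitary genes, left 29 members called in NIL.

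The 16 members under the filter in the structure fit were Dcc, Efna1, Efna4, Epha2, Epha3, Epha5, Epha7, Epha8, Ntn5, Robo1, Robo3, Sema3a, Sema3b, Sema3d, Slit1 and Unc5a. With no filter, 5 of these were called in NIL, 5 in RVLM and 1 in PVN against SON. In that fit 40.4%, 35.5% and 8.11% of all probe sets were called. Those shares include the brighter probe sets, so they give no like background for these dim genes, and no conclusion is drawn from the counts. Epha5, a receptor of ephrins A, had 1.49 ± 0.530 in NIL, 93.2 ± 19.3 in RVLM, 25.3 ± 22.7 in PVN and 16.1 ± 2.37 in SON. Without the filter it was higher in RVLM (2.52, adjusted p = 0.000166) and lower in NIL (−3.59, adjusted p = 1.18e-06). Sema3b had 12.5 ± 15.8 in PVN and 42.2 ± 19.8 in SON (−2.42, adjusted p = 0.0400), and Slit1 had 52.6 ± 10.8 in NIL, against 23.3 ± 3.65 in PVN and 17.6 ± 1.74 in SON (1.34, adjusted p = 0.000147). These 3 were named after their values were seen.

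Between SHR and WKY in the RVLM, 0 of 39 tested members were called by limma, and 2 had an unadjusted p under 0.05, beside 953 of 10400 genes in all. The 4 members with the largest moderated t are given by their values, none of which passed. Sema3c had 215, 192, 192, 214 and 171 in SHR and 260.5, 186, 269.9, 198 and 316 in WKY (−0.33, SE 0.137, adjusted p = 0.420). Sema6a had 84.7, 82.7, 61.3, 87.5 and 62.7 in SHR and 55.0, 64.6, 55.3, 61.3 and 66.1 in WKY (0.28, SE 0.132, adjusted p = 0.504). Ephb6 had 89.4, 77.9, 91.3, 94.6 and 97.4 in SHR and 69.4, 82.4, 56.5, 91.1 and 66.9 in WKY (0.29, SE 0.145, adjusted p = 0.576), and Ephb1 had 70.8, 103, 83.7, 44.9 and 53.9 in SHR and 81.1, 45.0, 45.1, 43.1 and 50.7 in WKY (0.38, SE 0.204, adjusted p = 0.607). In each of the 4 the arrays of the strains overlapped.

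**Figure D5:**
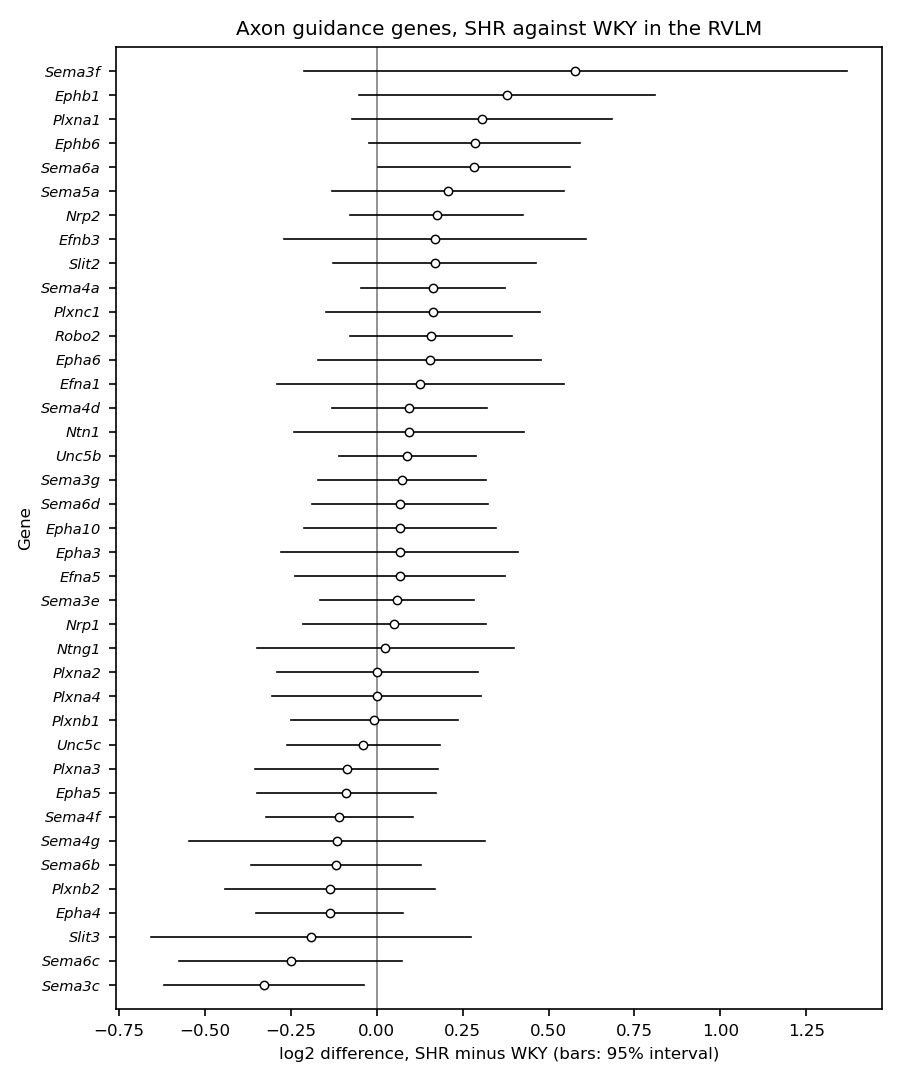
Log2 difference between SHR and WKY RVLM for the 39 tested members, with the 95% interval of the moderated fit. The differences run from −0.33 (Sema3c) to 0.58 (Sema3f), and the widest interval is that of Sema3f.

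The intervals bound what these 10 arrays leave possible for the probe set that stood for each member. Further probe sets of Epha4 differed by −0.51 (SE 0.153, adjusted p = 0.156) and −0.52 (SE 0.170, adjusted p = 0.220), outside its interval of −0.35 to 0.08. Those of Plxna2 (0.39), Plxna3 (0.35) and Robo2 (−0.15) also lay outside the interval of their gene. A second probe set of Sema6a was at 0.47 (adjusted p = 0.220). None of these was called. In 38 of the 39 members the 95% interval of the log2 difference lay within 1 on either side of 0, and in 27 within 0.5. The exception at 1 was Sema3f, a dim gene in RVLM (43.5 ± 12.7 in SHR and 32.1 ± 16 in WKY), whose interval reached 1.37. For Sema3e the interval was −0.16 to 0.28, for Plxnc1 −0.15 to 0.47 and for Plxnb2 −0.44 to 0.17. Sema4b, 1 of the 18 members under the filter in this fit, had 13.3, 19.2, 6.96, 19.5 and 29.9 in SHR and 39.2, 42.2, 30.4, 41.8 and 31.7 in WKY, with every SHR value below every WKY value. Every SHR value was below the lowest array median, and the log2 difference without the filter did not pass (−1.23, adjusted p = 0.140).

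The partners and effectors of these systems, a list of 69 adhesion molecules, co-receptors and signalling genes, had 59 tested genes. The list was chosen with results of these arrays known. In PVN against SON 14 rose and 2 fell, and the count of 16 was 9 without SON array 2 and 10 without SON array 3 or 4. The largest differences were those of Boc (−2.06), a Robo-like co-receptor of Hedgehog proteins, the growth cone protein gene Gap43 (1.03), the repulsive cue gene Rgma (0.86) and the axonal adhesion gene Cntn2 (0.84). Boc was dim and uneven, with 28.1 ± 37.5 in PVN, a mean below the lowest array median, and 62.9 ± 25.4 in SON (mean ± SD). The arrays of Boc and of Rgma overlapped. In NIL 14 rose and 30 fell: Ngef, a signalling partner of Epha4, fell by 4.92, L1cam, an adhesion molecule of axons, fell by 2.21, Gap43 fell by 2.12, and Boc rose by 2.20. Ngef had 7.53 ± 5.41 in NIL, a mean far below the lowest array median, against 179 ± 37.6 over the PVN and SON arrays. The size of its fall is therefore loosely determined. In RVLM 18 rose and 15 fell, with Chn2, a Rac-inactivating chimaerin, at 1.48, Ngef at −0.97, Cntn2 at 0.90 and Cntn4 at −0.89. The shares called were 27.1%, 74.6% and 55.9%, beside the 16.1%, 58.9% and 50.6% of all genes. Between the strains 1 of 59 was called (1.69%, beside 1.41%). This was Nrcam, a neuronal adhesion molecule that binds neuropilins, with 248 ± 38.7 in SHR and 138 ± 22.0 in WKY (SD, n = 5 each; log2 difference 0.81, SE 0.125, adjusted p = 0.00102). Its 2 other probe sets differed the other way without passing (−0.26 and −0.28), and with the mean of its probe sets the difference was 0.09 (adjusted p = 0.791), so the strain difference rests on 1 probe set.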

How the data were processed

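The 24 arrays were Affymetrix rat expression arrays. The authors deposited 1 linear intensity per probe set, made with GCOS 1.2 per the submitters' processing notes, and each array's 2% trimmed mean was nearly the same, so the arrays had been scaled before deposit. Here the deposited intensity was turned to log2 with no pseudocount, and each array's median was subtracted. Of 31042 probe sets other than controls, the 18625 above the 40th percentile of mean log2 intensity were tested with limma 3.58.1 in R 4.3.3 (lmFit, eBayes with an intensity trend), with Benjamini-Hochberg adjustment over all of them. One fit held the 10 RVLM arrays and another the 19 SHR arrays, for NIL or RVLM against the mean of PVN and SON and for PVN against SON. GEO's platform annotation, which can be old, gave 20826 probe sets 1 gene symbol, 436 several and 9780 none. Every member was named and accounted for, with the value on every array for the 5 called members with the largest rise and the 5 with the largest fall in each structure comparison and the 4 with the largest moderated t between strains. The members and gene lists were chosen with earlier results of these data known. The fit was tested on simulated data with log2 changes of 1 and 0.5 put in. It called 86% and 35% of them between the strains and 75% and 21% between PVN and SON. In NIL it called 88% and 40%, and in RVLM 84% and 42%. Small changes are thus often missed. Unchanged probe sets called numbered 7 between the strains, 1 between PVN and SON, 14 in NIL and 7 in RVLM. The alternatives were other scalings, pseudocounts of 16 and 64, other filters, array weights, other arrays in the fit, probe sets averaged per gene, a replicate block and each array left out. The number of arrays limits the precision.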

Additional observations from a re-analysis of the deposited data

Results flagged for a closer look

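In 20 members and 5 groups, 100 group tests in all, Dixon's test at the 95% level found 6 single arrays that stood apart, and chance alone finds about 1 in 20. Robo2 was 152 on PVN array 3, against 65.6 to 81.5 on the other PVN arrays. Sema4d was 1.91 on NIL array 2, against 13.0 to 17.3 on the other NIL arrays, all of them dim. Slit2 was 147 on NIL array 5, against 174 to 182. Ephb6 was 150.9 on PVN array 1, against 98.6 to 107. In WKY RVLM, Ephb1 was 81.1 on array 1, against 43.1 to 50.7, and Epha10 was 80.6 on array 2, against 58.5 to 63.3.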

How the results depend on the processing

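No called member, and none of the 4 members given between the strains, changed direction under the alternatives run. Members that were not called did so near 0: without PVN array 3, Slit2 (−0.18), Sema3g (−0.03), Ntn1 (−0.04) and Sema4g (−0.04) turned in PVN against SON, Sema5a (−0.03) in NIL and Plxna4 (0.01) in RVLM. Leaving out 1 array at a time gave 0 to 0 called members between the strains, 8 to 16 between PVN and SON, 28 to 32 in NIL and 25 to 27 in RVLM. A pseudocount of 64 gave 1 called member between the strains, Sema4b (−0.32, adjusted p = 0.0255), which that setting brings above the filter. With only the PVN and SON arrays in the fit, 7 members were called between them, and Efna5, Nrp2, Plxna4, Sema3c and Sema6d were lost, with fewer arrays to estimate the spread. A filter at the 60th percentile left 26 members, of which 16 were called in RVLM. With the mean of a gene's probe sets, Nrp1 (0.07, adjusted p = 0.560) and Slit2 (0.29, adjusted p = 0.107) were lost in RVLM. Of 46 same-numbered pairs of arrays, 4 deviated together with a correlation over 0.1. The 4 pairs of PVN and SON had 0.103, 0.0790, 0.0857 and 0.166, all positive but only 2 over 0.1, so the numbers were not taken to pair the samples. The replicate block gave 0 called members between the strains, 10 between PVN and SON, without Sema3c and Sema6d, 31 in NIL and 25 in RVLM. Array weights gave 17 between PVN and SON. The cause of these changes was not tested. Members at or under the array median are measured close to background, and their fold changes are the least certain.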
